A study of Mus musculus with 8 samples.

Results

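The genes described here are 48 genes of DNA replication and mitosis, chosen by name from a fixed list and found in the count tables through their Ensembl identifiers. Each symbol matched 1 of the 47729 gene identifiers counted, and all 48 were among the 16515 genes that passed the filter on low counts. By their known roles, 28 were placed in an S-phase class and 20 in a mitotic class. They were read in 8 RNA sequencing libraries of mouse embryonic stem (ES) cells of the E14TG2a line (strain 129/Ola), all kept for 48 h in medium with 15% serum and LIF.

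Every group had n = 2 libraries. QT7 and QT7L1 are quadruple knockout cells given back 1 copy of a factor, TCF7 in QT7 cells and TCF7L1 in QT7L1 cells. QKO cells lack full-length TCF7, TCF7L1, TCF7L2 and LEF1 on both alleles, and WT cells are unedited E14TG2a. QT7, QT7L1 and QKO were each sampled as 2 clones, A and B, and WT as 2 biological replicates, so the spread within an edited group includes the difference between clones. The genotype tags contradict the titles: libraries titled QT7 are tagged TCF7(-/-) and TCF7L1(+/-), and libraries titled QT7L1 are tagged TCF7(+/-) and TCF7L1(-/-). The names below follow the titles, as the design text does, and any direction that rests on which factor was restored carries that doubt.

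TCF/LEF proteins bind DNA at Wnt target genes and recruit beta-catenin or corepressors. In mouse ES cells TCF7L1 is known mainly as a repressor and TCF7 as an activator. Genes of DNA replication are transcribed from late G1 into S phase, largely under E2F factors. Genes of mitosis peak later, in G2 and M, through promoters with CCAAT boxes and the cell cycle homology region (CHR), a short element read by MuvB complexes. ES cells cycle fast with short gap phases, and both sets of genes are abundant in them.

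Levels are counts per 1000000 gene counts after TMM scaling (CPM), and differences are log2 fold changes with their standard error (SE) from edgeR's quasi-likelihood test. A gene is called higher or lower where its Benjamini-Hochberg adjusted p, taken over all 16515 genes, was below 0.05. Library totals ran between 31573536 and 43362627 counts, and each member had 788 to 39251 counts in a library. Mitochondrial genes took 1.57% of counts in QT7 replicate 1 and 1.15% in QT7L1 replicate 1, against 0.435 to 0.818% in the other 6 libraries. The 10 ES cell markers summed to 6461 and 7300 CPM in QT7, 7264 and 7489 CPM in QT7L1, 7759 and 7031 CPM in QKO and 6528 and 6693 CPM in WT, with none at 0. As a check of the labels, Tcf7 fell to 7.97 and 19.7 CPM in QKO, against 59.6 and 61.9 CPM in WT (log2 fold change -2.13 ± 0.37, adjusted p = 0.00685). Tcf7l1 fell by 0.88 ± 0.15 and Lef1 by 2.39 ± 0.46 on the log2 scale in QKO against WT, while Tcf7l2 stood at 0.01 ± 0.21. In the restored lines Tcf7 had 16.6 and 20.9 CPM in QT7 and 10.1 and 12.7 CPM in QT7L1. Tcf7l1 had 27.4 and 22.4 CPM in QT7 and 36.9 and 27.5 CPM in QT7L1, against 38.3 and 39.1 CPM in QKO. Neither restored gene was called above QKO. Tcf7 in QT7 stood at 0.44 ± 0.36 (edgeR adjusted p = 0.41) and Tcf7l1 in QT7L1 at -0.26 ± 0.15 (edgeR adjusted p = 0.217). Gene-level counts include edited transcripts as well as intact ones, and therefore do not settle which factor was restored.

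The promoters of 39 members (23 S-phase, 16 mitotic) were found in the RefSeq table for GRCm38.p6, as 300 bases covering 250 before and 50 after the annotated gene start. Mcm7 and E2f2 had 2 such windows each, and Mcm4, Gins1, Gins2, Gmnn, Pole, Ccna2, Cdc25c, Aurkb and Kif20a had none. Of 8 promoters shown because their genes carry the results below, 4 are of S-phase members called in at least 1 comparison and 4 are of mitotic members that went in different directions. Matches to the E2F and CHR letters, on either strand, are in capitals. The windows lie at chr8:75109259-75109558 (+) for Mcm5, chr5:151651159-151651458 (-) for Rfc3, chr9:109875329-109875628 (+) for Cdc25a, chr7:48881547-48881846 (-) for E2f8, chr10:69352863-69353162 (-) for Cdk1, chr9:70421505-70421804 (-) for Ccnb2, chr1:189688037-189688336 (-) for Cenpf and chr7:135716330-135716629 (-) for Mki67. Each is written on the strand of its gene, 5′ to 3′.
Mcm5: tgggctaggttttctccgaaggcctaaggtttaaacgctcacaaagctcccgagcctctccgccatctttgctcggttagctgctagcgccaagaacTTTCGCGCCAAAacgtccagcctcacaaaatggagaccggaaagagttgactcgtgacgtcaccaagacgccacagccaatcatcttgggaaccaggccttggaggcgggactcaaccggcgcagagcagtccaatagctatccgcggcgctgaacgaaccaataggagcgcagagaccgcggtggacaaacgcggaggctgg
Rfc3: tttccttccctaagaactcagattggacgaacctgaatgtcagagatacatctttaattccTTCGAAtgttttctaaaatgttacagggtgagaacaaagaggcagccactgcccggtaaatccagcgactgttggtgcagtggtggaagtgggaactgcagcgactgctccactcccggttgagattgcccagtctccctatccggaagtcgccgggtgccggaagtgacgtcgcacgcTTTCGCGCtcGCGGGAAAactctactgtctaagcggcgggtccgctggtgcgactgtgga
Cdc25a: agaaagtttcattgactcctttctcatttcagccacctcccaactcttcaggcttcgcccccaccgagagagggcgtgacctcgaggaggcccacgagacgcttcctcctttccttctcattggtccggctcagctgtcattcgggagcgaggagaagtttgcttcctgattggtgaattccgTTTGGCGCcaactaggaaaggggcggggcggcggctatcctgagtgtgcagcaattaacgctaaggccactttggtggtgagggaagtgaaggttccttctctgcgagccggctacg
E2f8: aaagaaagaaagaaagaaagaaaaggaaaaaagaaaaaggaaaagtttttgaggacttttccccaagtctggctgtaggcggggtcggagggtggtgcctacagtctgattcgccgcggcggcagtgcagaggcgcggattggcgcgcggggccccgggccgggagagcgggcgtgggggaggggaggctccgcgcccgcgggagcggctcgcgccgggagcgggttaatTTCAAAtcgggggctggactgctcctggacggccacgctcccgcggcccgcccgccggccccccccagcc
Cdk1: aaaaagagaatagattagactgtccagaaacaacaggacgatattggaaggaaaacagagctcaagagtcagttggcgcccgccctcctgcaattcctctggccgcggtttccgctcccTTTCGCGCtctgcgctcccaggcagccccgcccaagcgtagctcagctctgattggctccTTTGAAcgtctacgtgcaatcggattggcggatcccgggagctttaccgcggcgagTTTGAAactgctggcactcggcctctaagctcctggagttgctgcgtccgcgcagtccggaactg
Ccnb2: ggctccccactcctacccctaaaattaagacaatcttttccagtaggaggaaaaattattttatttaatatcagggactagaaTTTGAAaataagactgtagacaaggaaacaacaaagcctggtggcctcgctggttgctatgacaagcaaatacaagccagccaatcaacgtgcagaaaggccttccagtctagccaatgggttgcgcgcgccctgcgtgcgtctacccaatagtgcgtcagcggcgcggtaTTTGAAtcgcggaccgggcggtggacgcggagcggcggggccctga
Cenpf: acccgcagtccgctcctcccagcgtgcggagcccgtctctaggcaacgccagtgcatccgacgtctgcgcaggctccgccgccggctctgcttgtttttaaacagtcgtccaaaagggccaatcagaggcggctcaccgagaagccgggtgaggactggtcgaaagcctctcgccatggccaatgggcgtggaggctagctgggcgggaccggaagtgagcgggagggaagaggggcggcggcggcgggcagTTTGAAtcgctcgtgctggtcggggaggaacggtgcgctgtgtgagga
Mki67: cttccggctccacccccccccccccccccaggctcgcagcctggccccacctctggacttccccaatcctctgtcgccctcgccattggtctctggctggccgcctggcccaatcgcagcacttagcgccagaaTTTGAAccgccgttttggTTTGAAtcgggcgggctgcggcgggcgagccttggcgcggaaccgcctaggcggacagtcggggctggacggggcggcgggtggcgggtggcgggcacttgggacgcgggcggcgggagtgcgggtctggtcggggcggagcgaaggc

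The letters searched for E2F were TTTCGCGC and TTTGGCGC and TTTCCCGC and TTTGCCGC. At least 1 of them was present in 11 of 25 S-phase windows (44.0%) and in 1 of 16 mitotic windows (6.25%, Cdk1), against 2.26% of all 32851 mouse promoter windows and 3.78% of those of the genes tested. Mcm5 holds the first pair as overlapping matches, Rfc3 holds 2 separate matches, and Cdc25a and Cdk1 hold 1 each. The CHR letters TTTGAA or TTCGAA were present in 12 of 16 mitotic windows (75.0%) and 6 of 25 S-phase windows (24.0%), against 19.2% of all windows and 13.6% of those of the genes tested. They stand once in each of Cenpf, Rfc3 and E2f8, and a pair of them stands in each of Cdk1, Ccnb2 and Mki67. The E2f8 window holds no E2F match. CCAAT was found in 14 of 16 mitotic windows (87.5%) and 20 of 25 S-phase windows (80.0%), against 37.4% of all windows. The TCF/LEF letters CTTTGAT or CTTTGAA were in 3 of 16 mitotic windows (18.8%) and in 0 of 25 S-phase windows. The background was 8.65% of all windows and 5.85% of those of the genes tested. The 3 windows are those of Bub1b, Aurka and Cdk1. In Aurka and Cdk1 the match is CTTTGAA, which contains the CHR letters TTTGAA, so each is a CHR match by its letters alone. A match describes the letters only, and a window without one says nothing of binding elsewhere.

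Per kilobase of exon, WT levels of the members spanned 5.45 CPM per kb (Cdc25c) to 193 CPM per kb (Mcm5, the MCM helicase subunit), with a median of 38.5 CPM per kb. The lowest S-phase members on this scale were the transcription factors E2f2 (9.92 CPM per kb in WT) and E2f8 (10.7 CPM per kb in WT). Averaged over members after centring each gene on its mean over the 8 libraries, the S-phase class had log2 CPM of -0.20 and -0.07 in QT7, 0.04 and 0.02 in QT7L1, 0.15 and 0.28 in QKO and -0.10 and -0.12 in WT. Both QKO libraries were the highest of the 8, and those of QT7 and WT lay below 0. The mitotic class spanned -0.05 to 0.03 over all 8 libraries, with QKO at 0.01 and 0.02. Summed over the 28 S-phase members, the levels were 6327 and 6875 CPM in QT7, 7364 and 7342 CPM in QT7L1, 8141 and 8743 CPM in QKO and 6825 and 6786 CPM in WT. Summed over the 20 mitotic members they were 4742 and 4885 CPM in QT7, 5018 and 5113 CPM in QT7L1, 5045 and 5129 CPM in QKO and 4939 and 5075 CPM in WT. In bulk RNA a larger share of cells in S phase and more of these transcripts per cell cannot be told apart.

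**Figure D1:**
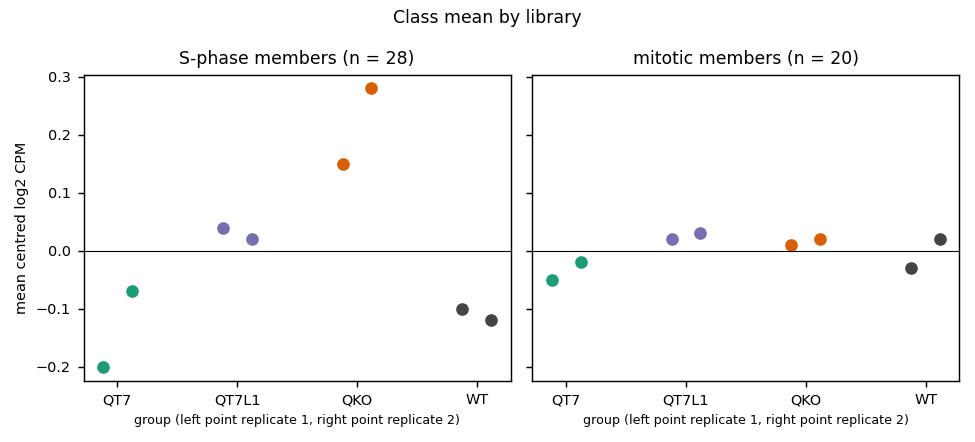
Mean centred log2 CPM of the 28 S-phase members (left) and the 20 mitotic members (right) in each of the 8 libraries; a point is a library and 0 is the mean over libraries. The S-phase means of QKO, 0.15 and 0.28, are above the other 6, while the mitotic means stay between -0.05 and 0.03.

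**Figure D2:**
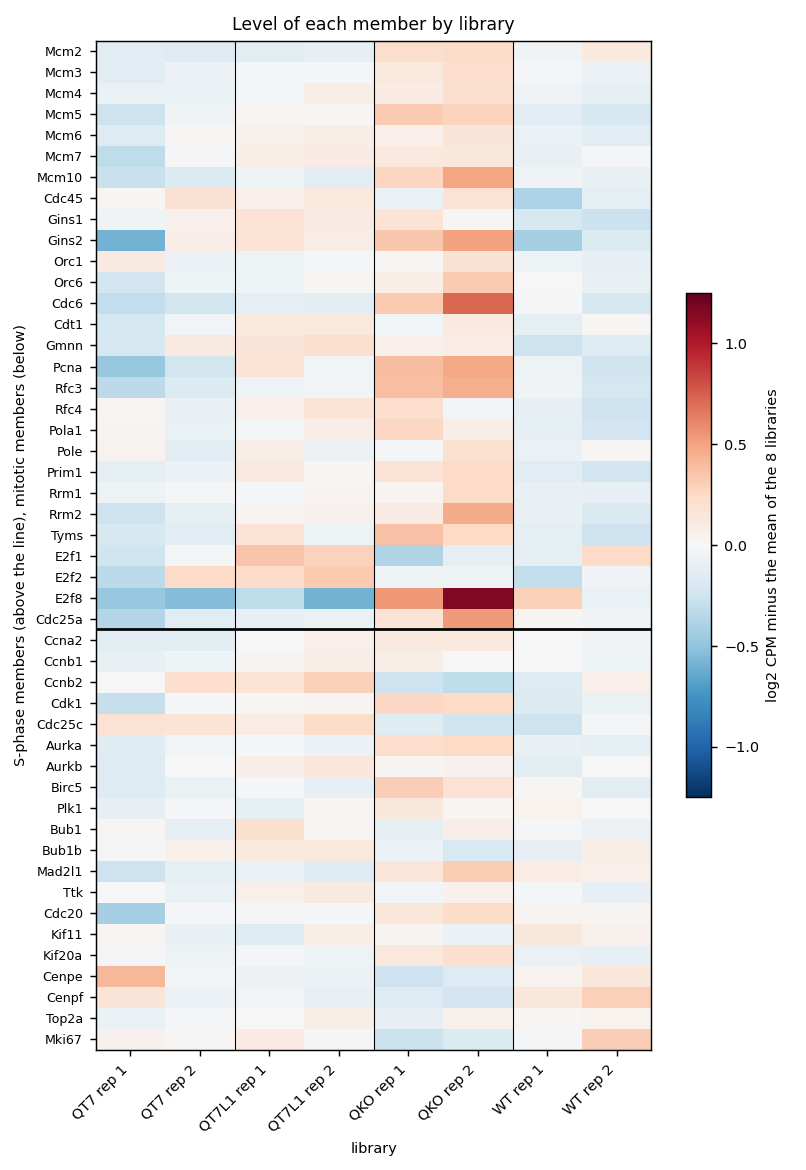
Level of each of the 48 members (rows, S-phase above the line and mitotic below) in each library (columns), as log2 CPM minus that gene's mean over the 8 libraries. Most S-phase rows are red in the QKO columns, with E2f8 darkest in both of them, and Ccnb2, Cenpe, Cenpf and Mki67 are blue there.

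Loss of the TCF/LEF factors was addressed by QKO against WT. In QKO 12 of 28 S-phase members rose and none fell. The background was 11.7% of all genes tested higher and 14.7% lower. Of the S-phase members 20 had an unadjusted p under 0.05, all of them higher in QKO. Over the 16515 genes tested 3065 reached that p on the higher side and 3478 on the lower side. DESeq2 called 13 S-phase members higher and 0 lower. The median log2 fold change of the S-phase class was 0.29 (a ratio of 1.22), against -0.01 over all genes tested, and 27 of its 28 members were above 0, against 49.5% of all genes tested. In the mitotic class 4 of 20 rose (Cdk1, Aurka, Birc5 and Kif20a), 2 fell (Cenpf and Mki67) and 14 did not pass, with a median of 0.07. Neither class moved far: the largest change in size was 0.76 among S-phase and 0.42 among mitotic members on the log2 scale.

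These calls changed with the libraries used. Without any 1 of the QKO or WT libraries, fewer of all genes tested were called too, higher and lower alike. The 12 S-phase calls numbered 0 without WT replicate 2, 2 without QKO replicate 2, 8 without QKO replicate 1 and 8 without WT replicate 1, and 10 to 14 when a library of a restored line was left out. None of the 18 member calls held in all 8 of these fits, though the S-phase median stayed positive in each, and each such fit assumes that the lone library varies like the other groups. The mitotic calls are the least firm: the 4 higher members numbered 0 without any 1 of the QKO or WT libraries and 2 without either QT7L1 library. The 2 lower members numbered 0 without either QKO library or WT replicate 2, 1 without either QT7L1 library and 3 without either QT7 library.

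**Figure D3:**
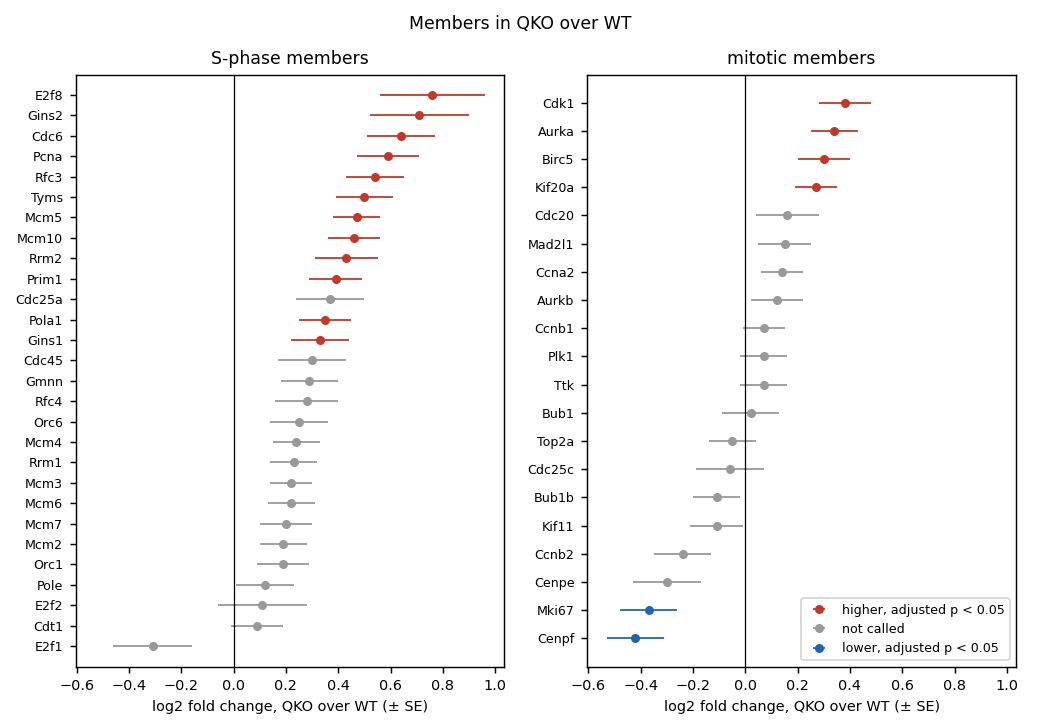
Log2 fold change of QKO over WT with its SE for the 28 S-phase members (left) and the 20 mitotic members (right), each ordered by value; red and blue mark calls at adjusted p under 0.05. S-phase members run from E2f8 at 0.76 to E2f1 at -0.31 with 12 red points, and mitotic members run from Cdk1 at 0.38 to Cenpf at -0.42.

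Among the MCM helicase subunits, which unwind DNA at the fork, Mcm5 was the only 1 of 6 called. It had 1085 and 1053 CPM in QKO, against 785 and 757 CPM in WT (log2 fold change 0.47 ± 0.09, edgeR adjusted p = 0.00653). The other 5 subunits lay between 0.19 and 0.24, all above 0. Of the factors that turn the loaded helicase on, Mcm10, Gins1 and Gins2 rose. Gins2, a subunit of the GINS complex, had 108 and 121 CPM in QKO, against 63.9 and 75.8 CPM in WT (0.71 ± 0.19, edgeR adjusted p = 0.0267), and Mcm10 rose by 0.46 ± 0.10. Cdc45, the remaining partner, was at 0.30 ± 0.13 and did not pass.

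Of the origin licensing factors, only Cdc6, the ATPase that loads MCM onto origins, was called among 5. Cdc6 had 126 and 165 CPM in QKO, against 98.7 and 87.4 CPM in WT, and the QKO clones differed from each other more than the WT replicates did (0.64 ± 0.13, edgeR adjusted p = 0.00656). Its partner Cdt1 stood at 0.09 ± 0.10, the Cdt1 inhibitor geminin (Gmnn) at 0.29 ± 0.11, and the origin recognition subunits Orc1 and Orc6 at 0.19 ± 0.10 and 0.25 ± 0.11.

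In the group of clamp and polymerase genes 4 of 6 rose. Pcna, the sliding clamp (chr2:132249162-132253314), had 486 and 518 CPM in QKO, against 356 and 313 CPM in WT (0.59 ± 0.12, edgeR adjusted p = 0.0064). The processed copy Pcna-ps2, at up to 79.7 CPM, moved with it (0.66 ± 0.12), and the sources used here do not say how reads were shared between the copies. Rfc3, a clamp loader subunit, had 74.8 and 79.4 CPM in QKO, against 56.2 and 50.1 CPM in WT (0.54 ± 0.11, edgeR adjusted p = 0.00665). Pola1, the catalytic subunit of polymerase alpha, and Prim1, the primase that works with it, rose by 0.35 ± 0.10 and 0.39 ± 0.10. Pole, the leading-strand polymerase, stood at 0.12 ± 0.11 and the clamp loader subunit Rfc4 at 0.28 ± 0.12.

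Of the 3 genes of deoxynucleotide supply, Rrm2 (0.43 ± 0.12), the regulated subunit of ribonucleotide reductase, and Tyms (0.50 ± 0.11), thymidylate synthase, rose, while Rrm1, the large reductase subunit, was at 0.23 ± 0.09 and did not pass. The G1/S regulators split. E2f8, an atypical repressive E2F (chr7:48866429-48881596), had 77.9 and 119 CPM in QKO, against 65.5 and 50.6 CPM in WT, the widest ratio between the QKO libraries of any member (0.76 ± 0.20, edgeR adjusted p = 0.0243). The activator E2f1 had 37.7 and 45.1 CPM in QKO, against 45.1 and 57.7 CPM in WT, and was the 1 S-phase member below 0 (-0.31 ± 0.15, adjusted p = 0.141). E2f2 stood at 0.11 ± 0.17 and Cdc25a, the phosphatase that activates S-phase kinases, at 0.37 ± 0.13 (adjusted p = 0.0562).

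In the mitotic class the kinase Cdk1 had 305 and 302 CPM in QKO, against 226 and 241 CPM in WT (0.38 ± 0.10, edgeR adjusted p = 0.0229). Of the 16 mitotic windows only that of Cdk1 held an E2F match, and a link between that match and the change was not tested. Aurka, the spindle pole kinase, rose by 0.34 ± 0.09, and Birc5 (survivin), of the chromosomal passenger complex, by 0.30 ± 0.10. Kif20a, a kinesin of cytokinesis, rose by 0.27 ± 0.08. The large kinetochore protein gene Cenpf had 147 and 139 CPM in QKO, against 181 and 202 CPM in WT (-0.42 ± 0.11, edgeR adjusted p = 0.0173). Mki67, which coats mitotic chromosomes, had 228 and 244 CPM in QKO, against 271 and 341 CPM in WT, where the replicates stood far apart (-0.37 ± 0.11, adjusted p = 0.0359). The cyclins did not pass: Ccna2 was at 0.14 ± 0.08, Ccnb1 at 0.07 ± 0.08 and Ccnb2 at -0.24 ± 0.11. None of the 5 checkpoint and APC/C genes passed either, with log2 fold changes between -0.11 (Bub1b) and 0.16 (Cdc20).

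Both QKO libraries lay above all 6 others for 16 of 28 S-phase and 7 of 20 mitotic members, against 19.6% of all genes tested. Both lay below all 6 others for 0 of 28 S-phase and 4 of 20 mitotic members (Cenpf, Cenpe, Mki67 and Ccnb2), against 21.5% of all genes tested. In the windows examined, 4 of 11 S-phase members with an E2F match rose in QKO against WT, and the median over all 11 was 0.22. Of the 12 without a match 6 rose, and the median over all 12 was 0.34, beside 11.7% of all genes tested higher.

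**Figure D4:**
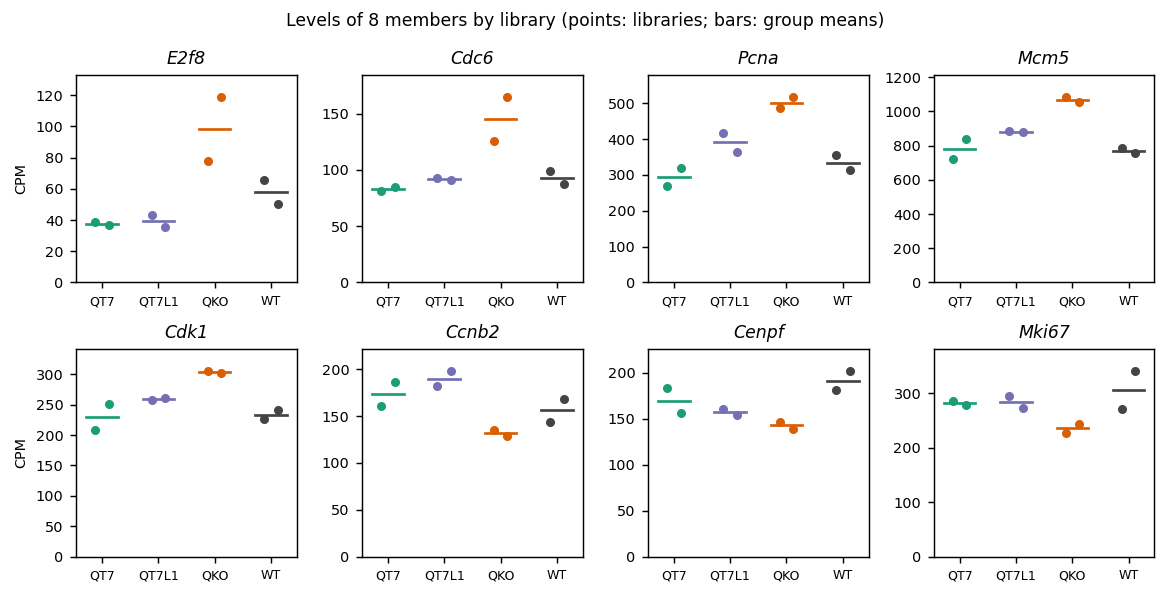
CPM of 4 S-phase members (top) and 4 mitotic members (bottom) in each library; points are libraries, horizontal bars are group means, and each vertical axis starts at 0. E2f8, Cdc6, Pcna, Mcm5 and Cdk1 are highest in both QKO libraries, and Ccnb2, Cenpf and Mki67 are lowest there.

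Restoring TCF7 was addressed by QT7 against QKO. In QT7 14 of 28 S-phase members fell and none rose. The background was 12.1% of genes lower and 14.8% higher. An unadjusted p under 0.05 was reached by 16 S-phase members, all lower in QT7, against 3008 lower and 3580 higher of 16515 genes. DESeq2 called 15 S-phase members lower and 0 higher. The class median was -0.29, against 0.05 over all genes tested. Of the mitotic members 5 of 20 fell (Cdk1, Aurka, Birc5, Mad2l1 and Cdc20), 2 rose (Ccnb2 and Cenpe) and 13 did not pass, with a median of -0.09. This comparison and QKO against WT use the same QKO libraries, so a high QKO library moves both, and opposite signs between them are not independent observations. Without either QKO library, fewer of all genes tested were called too, higher and lower alike. The 14 S-phase calls numbered 7 without QKO replicate 2, 9 without QKO replicate 1, 9 without QT7 replicate 1 and 10 to 13 without any other library. Cdc6, E2f8, Mcm5, Mcm10, Pcna and Rfc3 were called in all 8 of those fits. The 5 lower mitotic members numbered 0 without QKO replicate 2 and 1 without QKO replicate 1 or QT7 replicate 1. The 2 higher mitotic members numbered 0 without either QKO library and 1 without QT7 replicate 1, either WT library or either QT7L1 library.

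The largest difference was in E2f8, with 38.6 and 36.8 CPM in QT7, against 77.9 and 119 CPM in QKO (-1.38 ± 0.20, edgeR adjusted p = 0.00241). Both QT7 libraries were below the lower QKO library. Cdc6 had 81.0 and 85.2 CPM in QT7, against 126 and 165 CPM in QKO (-0.81 ± 0.13, edgeR adjusted p = 0.00242). Pcna had 268 and 318 CPM in QT7, against 486 and 518 CPM in QKO (-0.78 ± 0.12, edgeR adjusted p = 0.00201). The QT7 and QKO libraries did not overlap in these 3 genes. Nor did they in many members that were not called, Mcm4, Mcm6 and Rrm1 among them, so this does not set the 3 genes apart.

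Rfc3 had 46.2 and 51.4 CPM in QT7, against 74.8 and 79.4 CPM in QKO (-0.66 ± 0.11, edgeR adjusted p = 0.00266). Mcm10 fell by 0.61 ± 0.10, Cdc25a by 0.61 ± 0.13 and Gins2 by 0.63 ± 0.19, although the QT7 clones differed in Gins2 (56.9 and 90.4 CPM). Of the helicase subunits Mcm2 (-0.38), Mcm3 (-0.28) and Mcm5 (-0.45) fell, and the other 3 lay between -0.30 and -0.18. Orc6 (-0.35), Prim1 (-0.30), Rrm2 (-0.49) and Tyms (-0.47) also fell. The Prim1 call was lost whichever library was left out, and the Orc6 call was lost in 6 of those 8 fits. Among those not called were Cdc45 at 0.06 ± 0.13, Gins1 at -0.09 ± 0.11, E2f1 at 0.12 ± 0.15 and E2f2 at 0.04 ± 0.17.

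On the mitotic side, Cdk1 had 209 and 251 CPM in QT7, against 305 and 302 CPM in QKO (-0.40 ± 0.10, edgeR adjusted p = 0.0174). Mad2l1, the checkpoint protein that holds back the APC/C, fell by 0.42 ± 0.10, Birc5 by 0.37 ± 0.10 and Aurka by 0.33 ± 0.09. Cdc20, the APC/C activator, had 254 and 334 CPM in QT7, against 376 and 397 CPM in QKO, with clone A far below clone B (-0.39 ± 0.12, edgeR adjusted p = 0.0345). Cyclin B2 went the other way: Ccnb2 had 161 and 186 CPM in QT7, against 135 and 129 CPM in QKO (0.40 ± 0.11, edgeR adjusted p = 0.0246). Cenpe, the kinesin that moves chromosomes to the metaphase plate, had 196 and 143 CPM in QT7, against 123 and 131 CPM in QKO (0.42 ± 0.13, edgeR adjusted p = 0.0414). Top2a, Kif11, Ttk and Bub1 stood within 0.05 of 0.

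**Figure D5:**
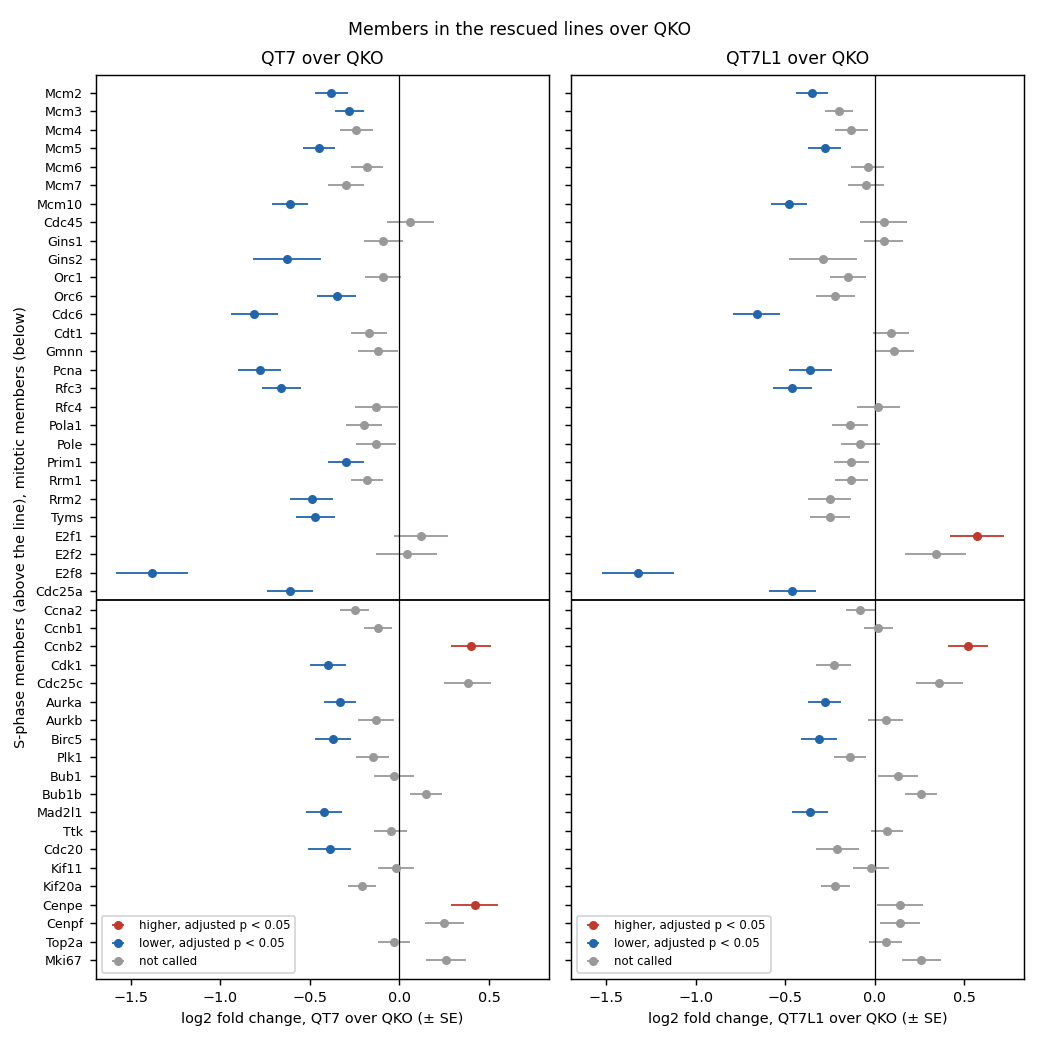
Log2 fold change over QKO with its SE for QT7 (left) and QT7L1 (right), members in rows with S-phase above the line; blue and red mark calls at adjusted p under 0.05. Of the S-phase members 14 are blue in QT7 and 8 in QT7L1, E2f8 lies farthest left in both (-1.38 and -1.32), and Ccnb2 is red in both.

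Restoring TCF7L1 was addressed by QT7L1 against QKO. In QT7L1 8 of 28 S-phase members fell, 1 rose (E2f1) and 19 did not pass. The background was 13.9% of genes lower and 15.9% higher. The class median was -0.14, against 0.02 over all genes tested. Of the mitotic members 3 of 20 fell (Aurka, Birc5 and Mad2l1), 1 rose (Ccnb2) and 16 did not pass, with a median of 0.04. The QKO libraries are shared with the preceding comparisons. Without any 1 of the QKO or QT7L1 libraries, fewer of all genes tested were called too, higher and lower alike. The 8 S-phase calls numbered 1 without QKO replicate 2, 3 without QT7L1 replicate 1, 2 without QT7L1 replicate 2 and 6 to 8 without any other library. Of the 13 member calls, E2f8 alone held in all 8 of those fits. The E2f1 call ended without QKO replicate 1 and without either QT7L1 library (edgeR adjusted p up to 0.116), and the Ccnb2 call without QKO replicate 2 or QT7L1 replicate 2. The 3 lower mitotic members numbered 0 without QKO replicate 2 and without either QT7L1 library, and 1 without QKO replicate 1.

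E2f8 had 43.0 and 35.4 CPM in QT7L1, against 77.9 and 119 CPM in QKO (-1.32 ± 0.20, edgeR adjusted p = 0.0025). Cdc6 had 92.6 and 91.0 CPM in QT7L1, against 126 and 165 CPM in QKO (-0.66 ± 0.13, edgeR adjusted p = 0.00496). Pcna had 418 and 364 CPM in QT7L1, against 486 and 518 CPM in QKO (-0.36 ± 0.12, edgeR adjusted p = 0.0409). In all 3 genes the groups did not overlap. Nor did they in most members that were not called, Mcm3, Mcm4 and Orc1 among them, so this does not set the 3 genes apart. On the log2 scale Pcna had the smallest change of the 3.

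Mcm10 (-0.48 ± 0.10), Rfc3 (-0.46 ± 0.11), Cdc25a (-0.46 ± 0.13), Mcm2 (-0.35 ± 0.09) and Mcm5 (-0.28 ± 0.09) fell as well. E2f1 had 62.8 and 59.8 CPM in QT7L1, against 37.7 and 45.1 CPM in QKO (0.57 ± 0.15, edgeR adjusted p = 0.017), and E2f2 stood at 0.34 ± 0.17. Ccnb2 had 182 and 198 CPM in QT7L1, against 135 and 129 CPM in QKO, the largest mitotic change in this comparison (0.52 ± 0.11, edgeR adjusted p = 0.00708). Mad2l1 fell by 0.36 ± 0.10, Birc5 by 0.31 ± 0.10 and Aurka by 0.28 ± 0.09. Cdk1 was at -0.23 ± 0.10 and Cdc20 at -0.21 ± 0.12, neither called.

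Set against WT, no member was called in either restored line. In QT7 against WT 0 of 48 members passed edgeR's test, against 4.62% of all genes tested. An unadjusted p under 0.05 was reached by 4 of the 48, against 3343 of 16515 genes tested. DESeq2 called 1 S-phase member, E2f8, lower in QT7. The S-phase median was 0.00, and the members farthest from WT were E2f8 (-0.62 ± 0.20, edgeR adjusted p = 0.117) and Cdc45 (0.36 ± 0.13, edgeR adjusted p = 0.136). E2f8 had 38.6 and 36.8 CPM in QT7, against 65.5 and 50.6 CPM in WT. In QT7L1 against WT 0 of 48 passed, against 0.745% of all genes tested, and DESeq2 called none. An unadjusted p under 0.05 was reached by 11 of the 48, against 2536 of 16515 genes tested. There 23 of 28 S-phase members were above 0, against 50.6% of all genes tested, at a median of 0.17, and E2f8 stood at -0.56 ± 0.20 (95% confidence interval -1.02 to -0.11). Gmnn (0.39 ± 0.11) and Gins1 (0.38 ± 0.11) had the smallest unadjusted p. A p that misses the threshold at n = 2 does not show that these levels equal those of WT.

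The restored lines were compared directly as QT7 against QT7L1. None of 48 members passed edgeR's test (0.00606% of all genes tested did, the single gene Erdr1, which is no member), and DESeq2 called none. An unadjusted p under 0.05 was reached by 4 of the 48, against 1830 of 16515 genes tested. Of the S-phase members 26 of 28 were below 0, against 49.8% of all genes tested. Their median was -0.15, against 0.00 over all genes. Pcna had 268 and 318 CPM in QT7, against 418 and 364 CPM in QT7L1 (-0.42 ± 0.12, 95% confidence interval -0.67 to -0.16, edgeR adjusted p = 0.255). E2f1 had 41.3 and 48.4 CPM in QT7, against 62.8 and 59.8 CPM in QT7L1 (-0.45 ± 0.15, 95% confidence interval -0.78 to -0.13, edgeR adjusted p = 0.314). The other 2 were Cdt1 (-0.26 ± 0.10) and Mcm7 (-0.25 ± 0.10). QT7 replicate 1 had the lowest S-phase mean of the 8 libraries, -0.20, and the highest mitochondrial share. QT7 replicate 2, at -0.07, also lay below the QT7L1 libraries at 0.04 and 0.02. The part of QT7 replicate 1 or of the mitochondrial share in the difference was not tested. Without QT7 replicate 2, some S-phase members were called lower in QT7, but QT7 is then replicate 1 alone. Those calls are not read as a difference between the lines.

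Other genes of the same pathways, outside the 48, were read from 3 further lists. Of 35 other replication genes 19 rose and none fell in QKO against WT, at a median of 0.37, beside 11.7% of all genes tested higher and 14.7% lower. Tk1, thymidine kinase, had 94.9 and 109 CPM in QKO, against 60.4 and 61.0 CPM in WT (0.75 ± 0.12, edgeR adjusted p = 0.00243). Rpa2 (0.58 ± 0.11) and Rpa1 (0.47 ± 0.08), which coat single-stranded DNA, and Lig1 (0.54 ± 0.10), which seals Okazaki fragments, rose too. In QT7 against QKO 14 of the 35 fell and none rose (background 12.1% lower, 14.8% higher), among them Pola2 (-0.99 ± 0.14) and Tk1 (-0.74 ± 0.12). In QT7L1 against QKO 13 fell and none rose (background 13.9% lower, 15.9% higher), among them Orc2 (-0.64 ± 0.12), Rpa2 (-0.59 ± 0.11) and the flap endonuclease Fen1 (-0.57 ± 0.10).

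Of 35 other mitosis genes 3 rose (8.57%) and 3 fell (8.57%) in QKO against WT, at a median of -0.02, beside 11.7% of all genes tested higher and 14.7% lower. Spc24 (0.64 ± 0.15), of the NDC80 complex, and Mad1l1 (0.54 ± 0.11), the partner of Mad2l1, rose. Securin (Pttg1) had 33.5 and 20.2 CPM in QKO, against 52.5 and 76.4 CPM in WT (-1.27 ± 0.25, edgeR adjusted p = 0.00891), and Cdc25b fell by 0.61 ± 0.13. In QT7 against QKO 6 of the 35 rose and 4 fell (background 14.8% higher, 12.1% lower), with Cdc25b at 0.83 ± 0.13, Hmmr at 0.48 ± 0.10, Mad1l1 at -0.56 ± 0.11 and Spc24 at -0.77 ± 0.15. In QT7L1 against QKO 9 rose and 2 fell (background 15.9% higher, 13.9% lower), with Cdc25b at 0.74 ± 0.13 and the centromeric histone gene Cenpa at 0.43 ± 0.09.

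Of 24 cell cycle transcription factors and CDK regulators 4 rose (16.7%) and 5 fell (20.8%) in QKO against WT, beside 11.7% of all genes tested higher and 14.7% lower. Rb1, the retinoblastoma protein that restrains E2F, had 12.4 and 12.3 CPM in QKO, against 22.7 and 29.2 CPM in WT (-1.07 ± 0.16, edgeR adjusted p = 0.00202). The CDK inhibitor genes Cdkn1a (-1.14 ± 0.23) and Cdkn1b (-0.98 ± 0.16) fell, and E2f4, the E2F of repressive complexes, rose by 0.63 ± 0.10. Rb1 rose by 1.41 ± 0.16 in QT7 and by 1.20 ± 0.16 in QT7L1 against QKO. E2f4 fell by 0.75 ± 0.10 in QT7 and by 0.56 ± 0.10 in QT7L1 against QKO. Tfdp1, the dimer partner of E2F factors, had 98.5 and 128 CPM in QT7, against 220 and 236 CPM in QKO (-1.01 ± 0.12, edgeR adjusted p = 0.000995).

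Markers of other cells also differed between libraries. The 15 fibroblast markers, which feeder cells would bring, summed to 197 and 264 CPM in QT7, 194 and 255 CPM in QT7L1, 249 and 145 CPM in QKO and 240 and 222 CPM in WT. Lum was at 0 in all 8 libraries, Dcn in 5 and Postn in 3, and 12 of the 15 passed the low-count filter. Of those 12, Thy1 rose (1.02 ± 0.20) and Mmp2 fell in QKO against WT (background 11.7% higher, 14.7% lower). In QT7 against QKO 2 rose and 0 fell (background 14.8% higher, 12.1% lower). In QT7L1 against QKO 3 rose and 0 fell (background 15.9% higher, 13.9% lower). Most of the 12 lay the other way without being called: 8 were below 0 in QT7 against QKO (median -0.39). In QT7L1 against QKO 8 were also below 0 (median -0.41). Mmp2, a matrix protease gene, had 52.5 and 51.0 CPM in QT7, 36.1 and 52.8 CPM in QT7L1, 16.4 and 14.2 CPM in QKO and 31.0 and 44.4 CPM in WT. Both QKO libraries were thus below the other 6, and Mmp2 was called in QKO against WT (-1.30 ± 0.21), in QT7 against QKO (1.76 ± 0.21) and in QT7L1 against QKO (1.54 ± 0.21). Pdgfrb rose by 1.49 ± 0.36 in QT7 and by 1.47 ± 0.36 in QT7L1 against QKO, and Fstl1 rose by 0.81 ± 0.18 in QT7L1 against QKO. The 14 markers of differentiated cells summed to 75.8 and 45.3 CPM in QT7, 49.7 and 47.6 CPM in QT7L1, 50.7 and 60.0 CPM in QKO and 68.0 and 74.8 CPM in WT.

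The ES cell markers were also measured in each library. Their mean centred log2 CPM was -0.11 and -0.01 in QT7, -0.04 and 0.02 in QT7L1, 0.19 and 0.08 in QKO and -0.06 and -0.09 in WT, so that both QKO libraries were the highest, as in the S-phase class. In QKO against WT 4 of 10 rose and 2 fell, beside 11.7% of all genes tested higher and 14.7% lower. Nanog was at 1.00 ± 0.10, Lin28a at 0.57 ± 0.11 and, among those that fell, Tdgf1 at -0.52 ± 0.14. In QT7 against QKO 5 of 10 fell and 2 rose, beside 12.1% of all genes lower and 14.8% higher. Lin28a was at -0.93 ± 0.11, Sall4 at -0.72 ± 0.11 and, among those that rose, Tdgf1 at 0.76 ± 0.14. In QT7L1 against QKO 4 of 10 fell and 2 rose, beside 13.9% lower and 15.9% higher. Lin28a was at -0.85 ± 0.11, Sall4 at -0.76 ± 0.11 and, among those that rose, Tdgf1 at 0.85 ± 0.14. The part of these markers in the results was not tested.

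Several members share bases or reads with another gene. Mcm7, Cdc45, Gins2, Orc6, Rfc4, Ccna2, Cdc20 and Kif20a overlap a gene on the opposite strand; the kit keeps strand, but the sources used here do not give the strand setting of the counting. Opposite-strand neighbours reached 253 CPM for Gins2 (Gse1), 475 CPM for Orc6 (Vps35) and 536 CPM for Rfc4 (Eif4a2), above these members themselves.

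The authors' deposited tables, with their sign turned to the direction used here, gave 11 of 28 S-phase members higher in QKO than in WT, all 11 of which were also called here. In the mitotic class the authors' deposited table called 2 members up and 2 down for QKO over WT, against 4 and 2 here, and 4 of the 6 calls made here were in both. For QT7 against QKO the authors' deposited table had 13 S-phase members lower, and for QT7L1 against QKO it had 7 lower and 1 higher. For QT7 against WT 1 S-phase member, E2f8, was lower in the authors' deposited table.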

How the data were processed

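RNA was sequenced from 8 libraries, each made with a strand-keeping mRNA kit from 250 ng of RNA, per the labels' protocols. Per the submitters' processing notes, reads were handled with bcl2fastq 1.8.4, STAR 2.4.0f1 (mm10, GRCm38), HTSeq and DESeq2 (listed as 2.1.8.3). No source used here gives the strand setting, the handling of multi-mapping reads or the annotation release. The authors deposited whole-number counts per Ensembl gene for each library. Their comparison tables hold, per the file headers, the mean normalised signal, log2 fold changes with SE, a test score (statistic) and p-values, raw and adjusted; they run the first-named group over the second and were used only beside the calls made here.

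Symbols came from the deposited comparison tables, and coordinates and exon lengths from GENCODE M21, which held 47224 of 47729 identifiers. The analysis used edgeR 4.0.16 in R 4.3.3: filterByExpr defaults left 16515 genes, scaled by TMM (factors 0.955 to 1.028). A quasi-likelihood model with 1 mean for each of the 4 groups was fitted to the 8 libraries (robust, residual df 4). Each of the 6 group pairs was tested 2-sided and adjusted by Benjamini-Hochberg within a pair, called under 0.05. SE is the absolute log2 fold change over the square root of F. Centred log2 CPM used a prior count of 2. Replicates of a group correlated at 0.9815 (QT7) to 0.9912 (QT7L1) and differed by more than counting noise, most of all in QT7, so none was merged. P-values measure the spread between these libraries, clones included. With 2 libraries a group, counting error is small beside that spread. The fit was tested on simulated counts.

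The members, classes and lists were chosen with earlier results of these data known, so no p over the members is given. All 48 members may be named; from each further list up to 4 called genes per comparison with the smallest adjusted p were open to naming, plus the 4 TCF/LEF genes and list genes at 0. Motifs were searched as exact letters on both strands. Alternatives were RLE and upper quartile scaling, no filter, DESeq2 1.42.0, a replicate block, only the groups compared, each library left out, adjusted p under 0.01, and classes without members of both phases. The members treated as of both phases were Gmnn, E2f8, Cdc25a, Ccna2, Top2a and Mki67.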

Additional observations from a re-analysis of the deposited data

How the results depend on the processing

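No member called in any comparison changed sign under an alternative, and the S-phase medians kept their sign in QKO against WT and in QT7 against QKO. At adjusted p under 0.01, QKO against WT had 6 S-phase members higher, 0 mitotic higher and 0 mitotic lower; QT7 against QKO had 7 S-phase lower, 0 mitotic higher and 0 mitotic lower; QT7L1 against QKO had 3 S-phase lower, 0 S-phase higher and 0 mitotic lower. Upper quartile scaling left 2 mitotic members higher in QKO against WT, and leaving out members of both phases left 1 mitotic lower there. RLE scaling gave 1 mitotic member higher in QT7 against QKO. With only the groups compared, QT7 against QKO had 1 mitotic higher and 3 mitotic lower, and QT7L1 against QKO had 2 S-phase and 4 mitotic higher. With no low-count filter, QT7L1 against QKO had 2 S-phase higher, QT7 against WT had 1 higher and 1 lower, QT7L1 against WT had 3 higher and 1 lower, and QT7 against QT7L1 had 2 S-phase lower. DESeq2 called 1 S-phase member lower in QT7 against WT. The cause was not tested.

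Each fit without a library leaves 1 group as a single library. Without either QKO library, calls over all genes tested were also fewer in each comparison with QKO. Leaving out each library in turn, the counts of members ranged as follows. QKO against WT had 0 to 14 S-phase higher, 0 to 4 mitotic higher and 0 to 3 mitotic lower. QT7 against QKO had 7 to 13 S-phase lower, 0 to 2 mitotic higher and 0 to 5 mitotic lower. QT7L1 against QKO had 0 to 2 S-phase higher, 1 to 8 S-phase lower, 0 to 3 mitotic higher and 0 to 3 mitotic lower. QT7L1 against WT had 0 to 2 S-phase higher and QT7 against WT 0 to 1 mitotic lower. QT7 against QT7L1 had 0 to 5 S-phase lower, 0 to 1 mitotic higher and 0 to 1 mitotic lower, each highest without QT7 replicate 2.

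With a replicate block from the titles' numbers, 11 S-phase members were higher in QKO against WT, 14 lower in QT7 against QKO and 7 lower in QT7L1 against QKO. Nothing in the labels says that equal numbers pair libraries, and deviations of same-numbered libraries correlated between -0.205 and 0.164 over the 6 comparisons.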
